A study of Mus musculus with 10 samples.

Results

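Protein kinase A (PKA) subunits, anchoring proteins, an inhibitor and the transcription factor CREB1 were followed in brown adipose tissue (BAT) of control and Stat5Adipoq mice by RNA-Seq. The 10 genes were matched by symbol in the deposited table of the genotype comparison and joined by Entrez identifier to the deposited counts of each library, out of 24454 genes counted and 13568 genes tested. They were the catalytic subunits Prkaca and Prkacb, the regulatory subunits Prkar1a, Prkar1b, Prkar2a and Prkar2b, the anchors Akap1 and Akap12, the inhibitor Pkia and Creb1, and all 10 passed the filter on low counts. Both groups were male mice on a C57BL/6N background, 2 months old and fed ad libitum, sampled in the basal state, with 5 libraries each. Stat5Adipoq mice lack Stat5a and Stat5b in cells that express the Adipoq-Cre transgene, that is adipocytes, so other cells of the depot keep both genes. Controls are named wild type in the labels, whereas the methods describe littermates with floxed Stat5 alleles and no Cre.

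PKA is the main effector of cAMP in adipocytes. At rest a dimer of regulatory subunits holds the catalytic subunits inactive, and cAMP that binds the regulatory subunits frees them. Type I and type II holoenzymes differ in the regulatory subunit, anchoring proteins (AKAPs) hold the enzyme at membranes and organelles, and PKI peptides block free catalytic subunits. In brown adipocytes active PKA phosphorylates hormone sensitive lipase and perilipin at lipid droplets and CREB in the nucleus, which links β-adrenergic input to lipolysis and to transcription of thermogenic genes.

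Each library held between 8488129 and 19514904 counts on genes. Stat5a fell from 105 ± 17.0 CPM (counts scaled per library with TMM factors, mean ± SD, n = 5) in control to 17.1 ± 2.05 CPM in Stat5Adipoq BAT, and Stat5b from 83.8 ± 5.51 to 21.8 ± 0.723 CPM (edgeR adjusted p = 2e-07 and 3.9e-09). Of 10 brown adipocyte markers none was at 0 in any library, and their summed level was 18400 to 29500 CPM in control and 20100 to 25600 CPM in Stat5Adipoq BAT. Cox7a1 was the 1 called marker among them and rose. Control replicate 3 stood apart, with a summed level of 10 skeletal muscle markers of 3790 CPM, against 37.0 to 345 CPM in the other controls and 41.0 to 88.9 CPM in Stat5Adipoq libraries. It was the highest control for 9 liver markers too, with 276 CPM against 60.6 to 190 CPM, while Stat5Adipoq libraries had 30.4 to 84.8 CPM. No muscle marker was called, but 9 of 10 had an unadjusted p below 0.05 from edgeR, all lower. The exact permutation test gave p = 0.12 for Myh4 and 0.17 for Acta1 and Myh1. Of 7 Schwann cell markers 6 had an unadjusted p below 0.05 from edgeR, all lower. The 7 summed to 135 to 529 CPM in control and 122 to 232 CPM in Stat5Adipoq libraries. Cyp2e1 among the liver markers, which adipose tissue also expresses, and Retn among the white adipocyte markers fell. Each had the highest mean level of its list in both genotypes, so both summed levels lean on a single gene. In control and Stat5Adipoq BAT, Cyp2e1 was at 125 and 39.5 CPM and Retn at 86 and 29.7 CPM. The 6 white adipocyte markers summed to 113 to 151 CPM in control and 38.3 to 117 CPM in Stat5Adipoq libraries. Of their log2 fold changes 4 of 5 tested were below 0, with a median of -1.04. The gene above 0 was Lep, at 0.62 (limits -0.08 and 1.32), which was not called. No marker of macrophages, endothelium, fibroblasts, smooth muscle and pericytes or lymphocytes was called, and the summed level of every marker list overlapped between the genotypes. For the liver and white adipocyte lists the overlap rested on Stat5Adipoq replicate 1 alone, at 84.8 and 117 CPM. The other Stat5Adipoq libraries reached at most 33.6 and 77.6 CPM. In bulk tissue a smaller share of a cell type and less RNA of a gene per cell cannot be told apart.

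The promoters of the catalytic pair are shown because the only member past the threshold was one of them and its paralogue was not. The sequences are those of RefSeq on GRCm38.p6, 250 bases before to 50 after the transcript start, printed 5′ to 3′ on the strand of the gene. The table holds 2 windows for Prkaca and 3 for Prkacb, and the most upstream of each is printed, since the others hold no match to the motif below. The Prkaca window is chr8:83972728-83973027 on the plus strand, and the window of the most upstream annotated Prkacb start is chr3:146812897-146813196 on the minus strand. Capitals mark the cAMP response element core TGACG, which reads CGTCA on the other strand.

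Prkaca: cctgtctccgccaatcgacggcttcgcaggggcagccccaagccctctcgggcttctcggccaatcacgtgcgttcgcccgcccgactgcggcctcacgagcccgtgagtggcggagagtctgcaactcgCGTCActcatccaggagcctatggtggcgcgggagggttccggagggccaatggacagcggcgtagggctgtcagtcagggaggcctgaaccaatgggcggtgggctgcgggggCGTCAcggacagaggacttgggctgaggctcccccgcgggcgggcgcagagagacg

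Prkacb: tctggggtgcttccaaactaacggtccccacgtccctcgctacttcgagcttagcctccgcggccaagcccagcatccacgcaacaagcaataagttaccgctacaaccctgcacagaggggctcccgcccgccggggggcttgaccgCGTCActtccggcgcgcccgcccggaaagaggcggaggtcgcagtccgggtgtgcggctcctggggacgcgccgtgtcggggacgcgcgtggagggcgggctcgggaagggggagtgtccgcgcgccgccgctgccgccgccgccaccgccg

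The core lay 120 and 6 bases before this Prkaca start and 102 bases before this Prkacb start, counted at its first base. The table of promoters held 23 windows for 8 of the members and none for Akap12 and Pkia. The core was in 7 of the 23 windows and in 5 of the 8 genes (Prkaca, Prkacb, Prkar1a, Prkar1b and Prkar2a), and 20.8% of all 32851 promoter windows held it. The 2 Prkar1a windows that overlap share matches, and several of these genes have more than 1 window, which gives a gene more chances of a match, so the count of genes is not set against the share of all genes. The full element TGACGTCA, which contains the core, was in 2 overlapping windows of Prkar1a, against 1.79% of all windows. The STAT5 consensus TTCNNNGAA was in none of the 23 windows and in 8.30% of all windows, searched on both strands like the others. These matches describe letters in short windows and nothing was measured on binding.

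The order of the genes by level is given per length, as CPM per kilobase of the longest annotated coding transcript, because longer transcripts collect more reads. Prkar2b, the type II regulatory subunit known to predominate in adipose tissue, was first with 495 ± 44.0 CPM per kb (SD, n = 5) in control and 492 ± 23.7 in Stat5Adipoq BAT. Prkaca followed with 208 ± 9.86 CPM per kb in control and 178 ± 8.53 in Stat5Adipoq BAT, and then Akap1, which anchors PKA to the outer mitochondrial membrane, with 164 ± 17.5 and 166 ± 8.07. Control libraries of Prkaca lay at 200 to 224 CPM per kb, above those of Akap1 at 141 to 189. In Stat5Adipoq BAT these neighbours overlapped, at 166 to 186 for Prkaca and 157 to 176 for Akap1. Prkar1a had 78.2 ± 8.63 and 68.3 ± 3.06 CPM per kb and Prkacb 20.8 ± 0.769 and 22.6 ± 1.29, each apart from its neighbours in both genotypes. Below them Akap12 (8.82 ± 0.711 CPM per kb in control) and Prkar2a (7.40 ± 1.49) overlapped in control and not in Stat5Adipoq BAT, where they ranged from 7.29 to 8.74 and from 5.95 to 6.79. The overlap in control rested on control replicate 3 alone, with Prkar2a at 9.93 CPM per kb. Creb1 (3.93 ± 0.243), Pkia (1.61 ± 1.84) and Prkar1b (0.786 ± 0.0956) were the lowest in control. The control range of Pkia, 0.635 to 4.89 CPM per kb, took in those of both others, that of Creb1 only through control replicate 3. With the length of all annotated exons in place of one transcript the order was the same, while Prkacb had 10.3 CPM per kb in control.

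**Figure D1:**
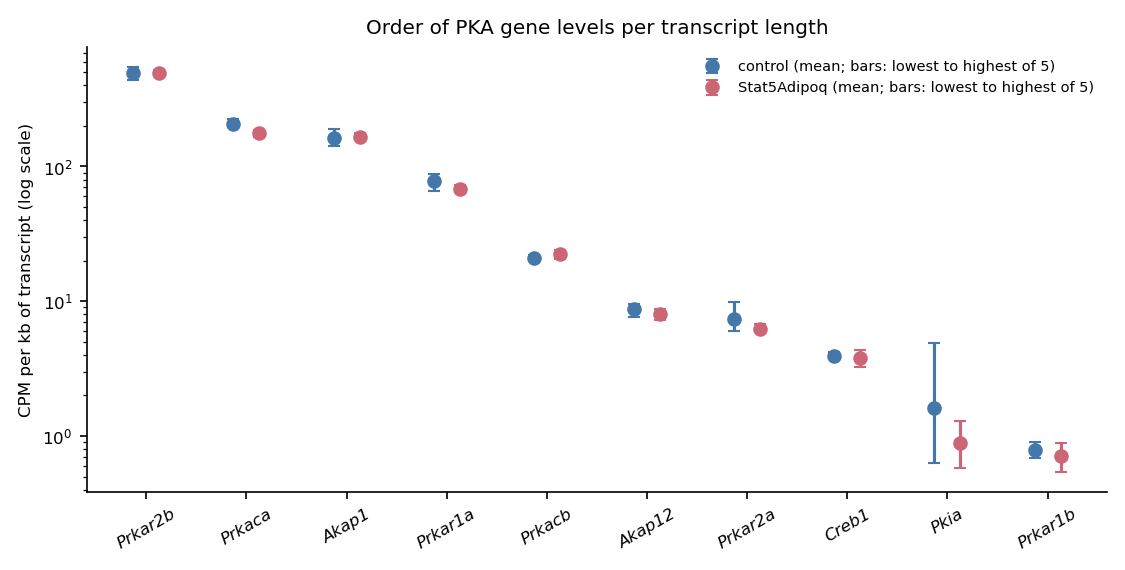
Level of each gene in CPM per kilobase of transcript, on a log scale, in control (blue) and Stat5Adipoq (red) BAT, where points are means and bars run from the lowest to the highest of 5 libraries. Prkar2b is highest at 495 CPM per kb in control, Prkar1b is lowest at 0.786, and the Akap1 bars meet those of Prkaca in Stat5Adipoq BAT only.

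Among the 10 genes Prkaca, which encodes the catalytic subunit Cα, fell in Stat5Adipoq BAT, while the other 9 did not pass the threshold in either direction. That is 1 of 10, where 2.71% of all tested genes were called by edgeR at an adjusted p below 0.05 and 1.31% were called lower. DESeq2 and limma-voom also called 1 of the 10, the same gene, and DESeq2 called 4.86% of all genes. An unadjusted p below 0.05 from edgeR was found for 3 of the 10, Prkaca, Prkacb and Prkar1a, against 15.2% of all genes. The exact permutation test, which was not adjusted, gave p = 0.0079, 0.032 and 0.048 for these 3 genes. For the remaining members the exact permutation test gave p from 0.071 (Prkar2a) to 0.96 (Prkar2b). Libraries of the genotypes were apart for 1 of the 10, against 4.39% of all genes. The median log2 fold change of the 10 was -0.13 and 8 of them were below 0, against a median of -0.003 and 50.8% below 0 over all genes. Among these 8, the signs of Prkar2b, Pkia and Creb1 changed when certain single libraries were left out. The genes were chosen with earlier results of these libraries known, so these counts are a description.

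Prkaca lies on chromosome 8 of GRCm38 from 83972978 to 83996444, and 0.359% of the 50-base words of its transcript occur in another gene, the pseudogene Prkaca-ps1. Its level was 462, 461, 510, 484 and 455 CPM in control replicates 1 to 5 and 422, 416, 377, 393 and 418 CPM in Stat5Adipoq replicates 1 to 5. All Stat5Adipoq libraries lay below all controls, and control replicate 3, the library with muscle and liver markers, was the highest. The means were 474 ± 22.4 and 405 ± 19.4 CPM (SD, n = 5), which is 0.854 times the control level or -0.23 as log2 fold change, with 95% limits of -0.34 and -0.11 (edgeR adjusted p = 0.043, exact two-sided permutation test p = 0.0079, the smallest that 5 against 5 allows). Without control replicate 3 the log2 fold change was -0.20 and edgeR's adjusted p 0.058. Leaving out any 1 of the 10 libraries gave adjusted p between 0.05 and 0.12, and Prkaca was called in none of those 10 fits, with 0.12 without Stat5Adipoq replicate 3 as the highest. The block of replicate numbers gave 0.14. The summed Schwann cell, liver, muscle, white adipocyte, fibroblast, lymphocyte and macrophage markers had lower medians in Stat5Adipoq libraries. Those of brown adipocytes, endothelium, and smooth muscle and pericytes had higher medians. As given above, the liver and white adipocyte sums lean on Cyp2e1 and Retn. The part of these cell types in the Prkaca difference was not tested.

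Prkacb, the gene of the catalytic subunit Cβ, lies on chromosome 3 from 146729579 to 146812946. It was at 88.3, 91.1, 96.0, 87.6 and 89.6 CPM in control and at 99.7, 105, 98.4, 89.2 and 99.8 CPM in Stat5Adipoq BAT. All Stat5Adipoq libraries but replicate 4 were above the highest control. The log2 fold change was 0.12, limits 0.00 and 0.24 (edgeR adjusted p = 0.31, exact permutation test p = 0.032), so Prkacb did not pass the threshold. The point estimates of the catalytic genes thus had opposite signs, also in each of the 18 alternative fits.

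**Figure D2:**
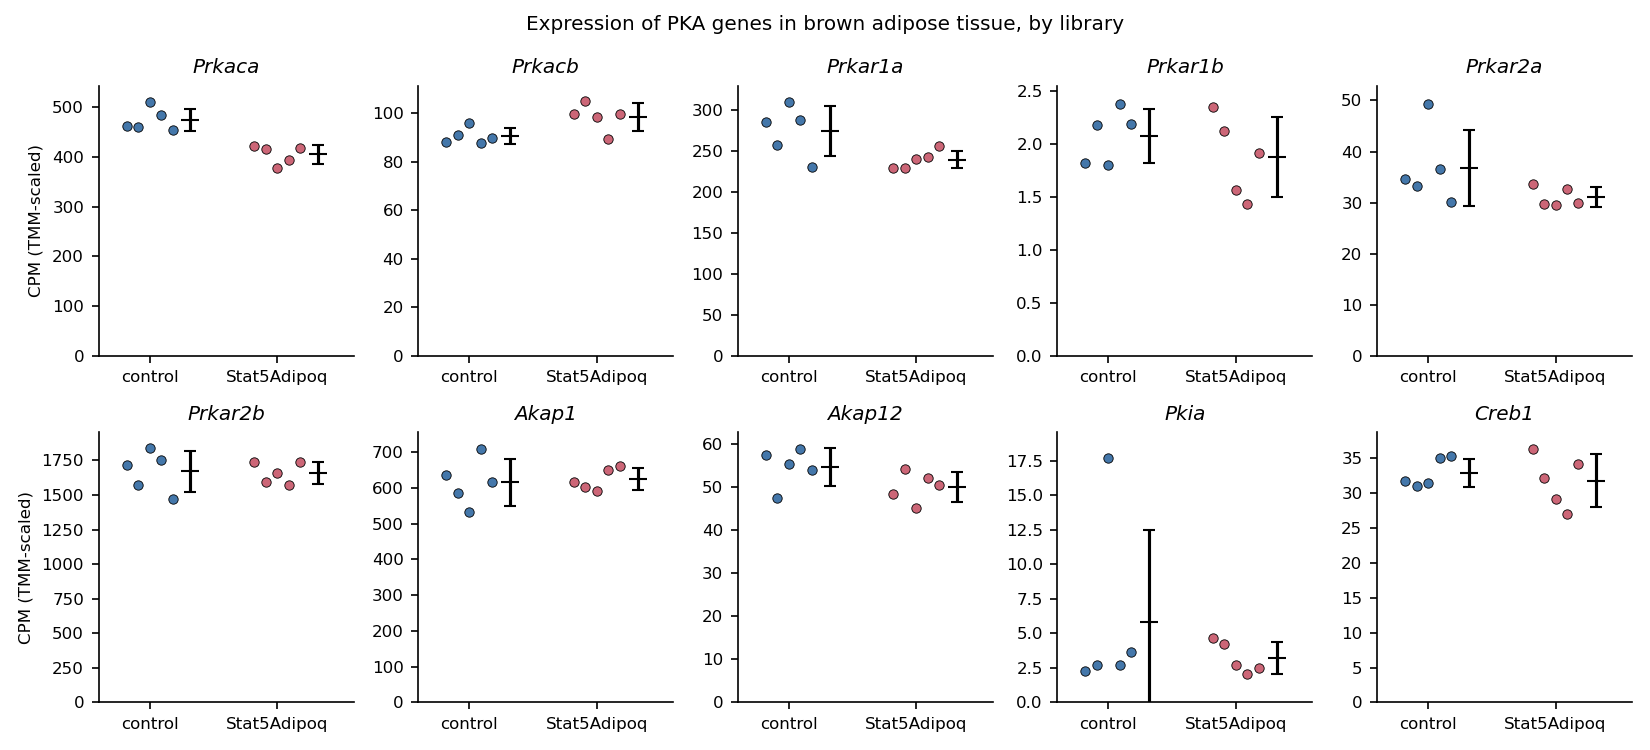
CPM of each gene in every library, with control in blue and Stat5Adipoq in red, points in the order of replicates 1 to 5, and the mean with its SD at the right of each group. Prkaca is the panel whose groups are apart, at 455 to 510 CPM against 377 to 422 CPM, and the Pkia panel shows control replicate 3 at 17.7 CPM, which takes the SD bar of that group below 0.

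Of the regulatory genes Prkar2b, on chromosome 12 from 31958450 to 32061648, is the most abundant and showed no called difference. Control libraries were at 1720, 1570, 1840, 1750 and 1470 CPM and Stat5Adipoq libraries at 1740, 1590, 1660, 1570 and 1740 CPM. The Stat5Adipoq values all lay inside the control range. The log2 fold change was -0.01, limits -0.15 and 0.14 (edgeR adjusted p = 0.98).

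Prkar1a, the ubiquitous type I regulatory subunit, lies on chromosome 11 from 109649023 to 109669663. Its level was 286, 258, 310, 288 and 231 CPM in control and 230, 230, 240, 243 and 256 CPM in Stat5Adipoq BAT. Control replicate 5 sat among the Stat5Adipoq libraries and the other controls were above them. The means of 275 ± 30.3 and 240 ± 10.8 CPM (SD, n = 5) differed by -0.20 on the log2 scale, with limits of -0.36 and -0.03 (edgeR adjusted p = 0.23, exact permutation test p = 0.048), which did not pass. Without control replicate 5 the adjusted p was 0.066, the lowest of the 18 alternatives.

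Prkar2a, on chromosome 9 from 108692143 to 108750444, encodes the more widely expressed type II subunit. It was at 34.6, 33.2, 49.3, 36.5 and 30.1 CPM in control and 33.7, 29.7, 29.5, 32.6 and 30 CPM in Stat5Adipoq BAT. Control replicate 3 was the highest library and the remaining controls overlapped the Stat5Adipoq range. The log2 fold change was -0.24 (limits -0.48 and 0.01, edgeR adjusted p = 0.35) and -0.12 without control replicate 3. Prkar1b, a type I subunit known mainly from brain, lies on chromosome 5 from 139017304 to 139150703 and was near the floor of detection, at 1.80 to 2.38 CPM in control and 1.43 to 2.35 CPM in Stat5Adipoq BAT. It averaged 24.4 counts per library, its log2 fold change of -0.14 had limits of -0.56 and 0.27, and 8.95% of its exon bases lie under exons of Gm15672 on the same strand.

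The catalytic to regulatory balance was taken as the count of Prkaca and Prkacb over the count of the 4 regulatory genes in the same library, which does not depend on scaling between libraries. In control it was 5747 over 21371, 6085 over 20517, 5035 over 18305, 11305 over 41119 and 5966 over 18988 counts, that is 0.269, 0.297, 0.275, 0.275 and 0.314. In Stat5Adipoq BAT it was 6226 over 23957, 8113 over 28837, 5148 over 20942, 4377 over 16799 and 6478 over 25356 counts, that is 0.260, 0.281, 0.246, 0.261 and 0.255. Regulatory reads outnumbered catalytic reads in every library, and Stat5Adipoq replicate 2 was above control replicates 1, 3 and 4, so the groups overlapped.

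The mean balance was 0.286 ± 0.0189 (SD, n = 5) in control and 0.261 ± 0.0129 in Stat5Adipoq BAT, a ratio of means of 0.911. The balance sums genes chosen with results known and is given without a test. Per kilobase of transcript it was 0.396 ± 0.0253 and 0.354 ± 0.0177, and the groups again overlapped. Over the type II subunits alone it was 0.332 ± 0.0211 and 0.298 ± 0.0151, with a ratio of means of 0.897. Over the type I subunits alone it was 2.05 ± 0.174 and 2.09 ± 0.142, a difference in the other direction and within the spread of libraries.

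Within the catalytic pair the shift was wider than in the whole balance. The count of Prkaca over that of Prkacb was 5.23, 5.06, 5.31, 5.53 and 5.08 in control and 4.24, 3.97, 3.83, 4.40 and 4.19 in Stat5Adipoq libraries. The groups were apart, and the ratio of means was 0.787. Per kilobase Prkaca made up 90.6% to 91.3% of catalytic reads in control and 88.0% to 89.4% in Stat5Adipoq BAT. Prkaca over Prkar2b was 0.268, 0.294, 0.277, 0.276 and 0.310 in control and 0.242, 0.262, 0.227, 0.25 and 0.240 in Stat5Adipoq libraries, also apart, with a ratio of means of 0.857. These ratios restate the single-gene differences given above, in genes chosen with results known, and were not tested.

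The makeup of the regulatory subunits differed less. Prkar2b made up 84.6% to 85.7% of regulatory reads per kilobase in control and 85.9% to 87.6% in Stat5Adipoq BAT. Prkar1a made up 13% to 13.7% and 11.1% to 12.8%, Prkar2a at most 1.54% and 1.21%, and Prkar1b at most 0.164% and 0.151%. The ranges of Prkar2b and Prkar1a did not meet between the genotypes, although the level of Prkar2b itself overlapped fully. Shares of one total move together, and they were not tested.

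**Figure D3:**
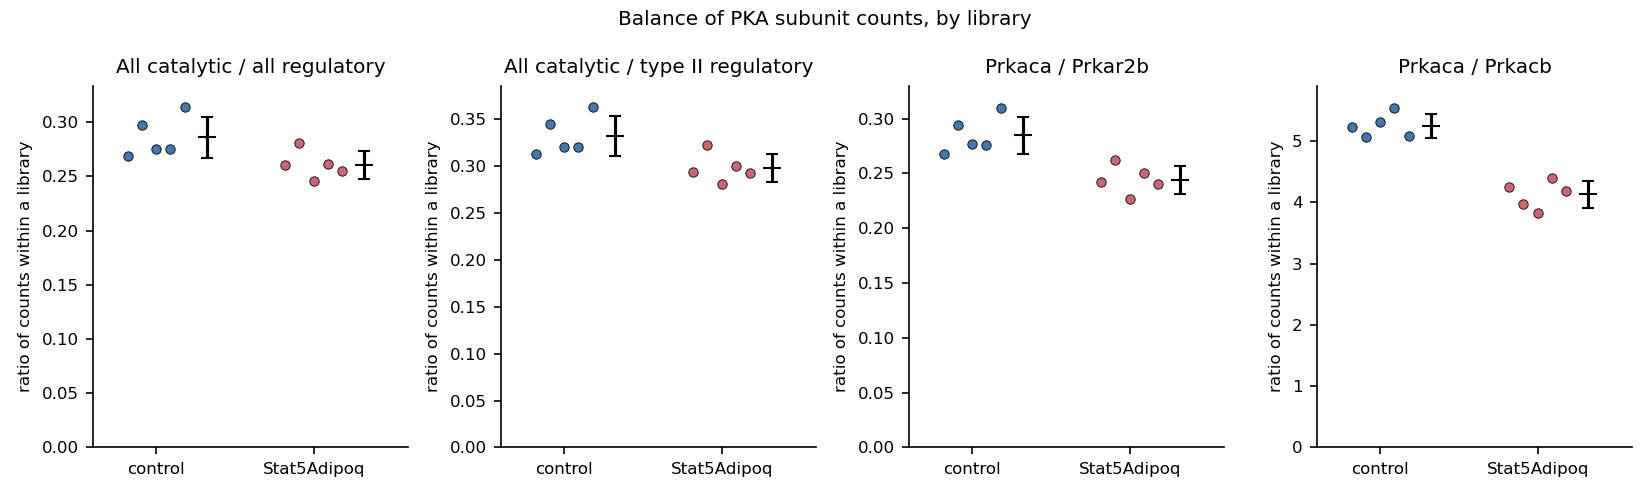
Ratios of counts within each library, from left all catalytic over all regulatory subunits, all catalytic over type II subunits, Prkaca over Prkar2b and Prkaca over Prkacb, with the mean and SD beside each group. The 2 left panels overlap between the genotypes, and the Prkaca over Prkacb panel shows controls at 5.06 to 5.53 and Stat5Adipoq libraries at 3.83 to 4.40.

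The anchors did not pass the threshold. Akap1, on chromosome 11 from 88830792 to 88864596, was at 635, 585, 532, 710 and 617 CPM in control and 617, 603, 592, 651 and 662 CPM in Stat5Adipoq BAT. Stat5Adipoq libraries lay inside the control range, whose lowest library was control replicate 3. The log2 fold change was 0.02, limits -0.14 and 0.18 (edgeR adjusted p = 0.94), and it was -0.03 without that library and -0.0031 with scaling by library size only. Akap12, a scaffold at the plasma membrane that also binds protein kinase C and β-adrenergic receptors, lies on chromosome 10 from 4266329 to 4359471. It was at 57.4, 47.5, 55.3, 58.9 and 54.1 CPM in control and 48.5, 54.2, 45.1, 52.2 and 50.6 CPM in Stat5Adipoq BAT. The groups overlapped, with -0.12 as log2 fold change and limits of -0.28 and 0.03 (edgeR adjusted p = 0.45).

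Pkia, which encodes a heat stable inhibitor that is abundant in skeletal muscle, lies on chromosome 3 from 7366604 to 7445366. It was at 2.30, 2.72, 17.7, 2.73 and 3.65 CPM in control and at 4.69, 4.23, 2.68, 2.09 and 2.48 CPM in Stat5Adipoq BAT. Control replicate 3 held 147 counts of it, against 19 to 66 in the other libraries, and the other 4 controls lay inside the Stat5Adipoq range. The log2 fold change was -0.77, limits -1.97 and 0.42 (edgeR adjusted p = 0.57), and without control replicate 3 it was 0.20 (adjusted p = 0.78), so its sign rested on 1 library. The same library had 3790 CPM of muscle markers and the highest Prkar2a, Prkaca, Prkar1a and Prkar2b, and the lowest Akap1. It also had the highest summed brown adipocyte markers, at 29500 CPM. The part of muscle RNA in these values was not tested.

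**Figure D4:**
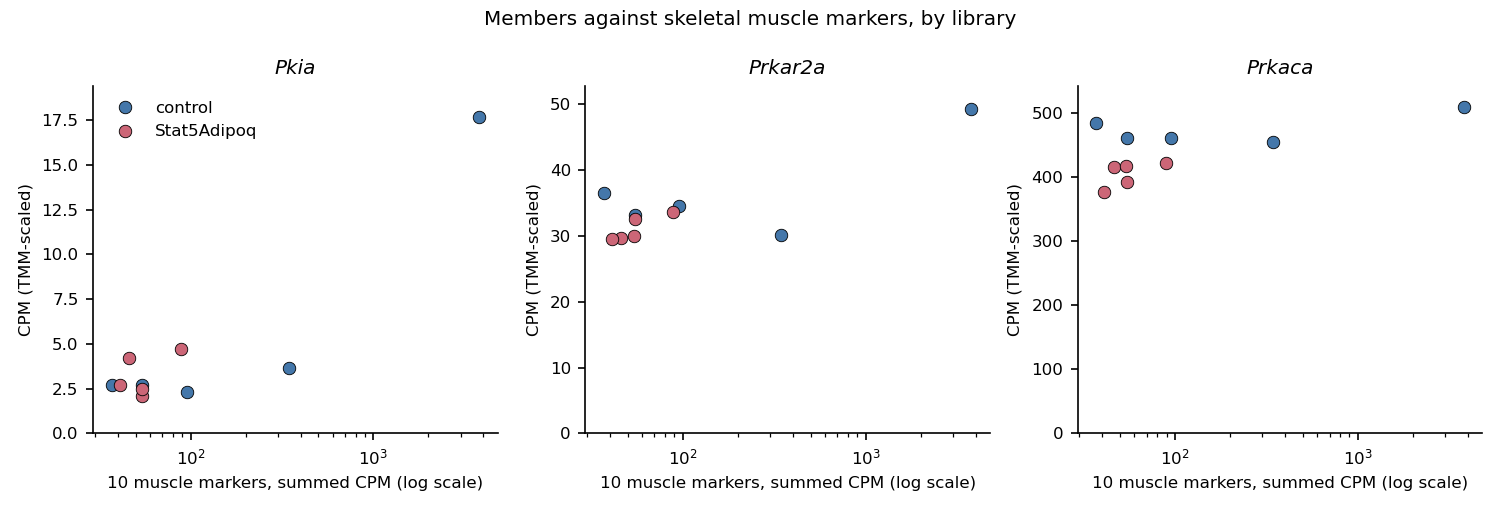
CPM of Pkia, Prkar2a and Prkaca in each library (blue control, red Stat5Adipoq) against the summed CPM of 10 skeletal muscle markers on a log scale. Control replicate 3, at 3790 CPM of markers, is the highest point in all 3 panels, while the other 4 controls stay at 455 CPM of Prkaca or more and above every Stat5Adipoq library.

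Creb1, on chromosome 1 from 64532794 to 64604548, encodes the transcription factor that PKA activates by phosphorylation, a step that counts do not show. It was at 31.8, 31.1, 31.4, 35.0 and 35.3 CPM in control and 36.4, 32.2, 29.2, 27.0 and 34.2 CPM in Stat5Adipoq BAT. Stat5Adipoq libraries spread to both sides of the controls. The log2 fold change was -0.05, limits -0.23 and 0.13 (edgeR adjusted p = 0.85).

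**Figure D5:**
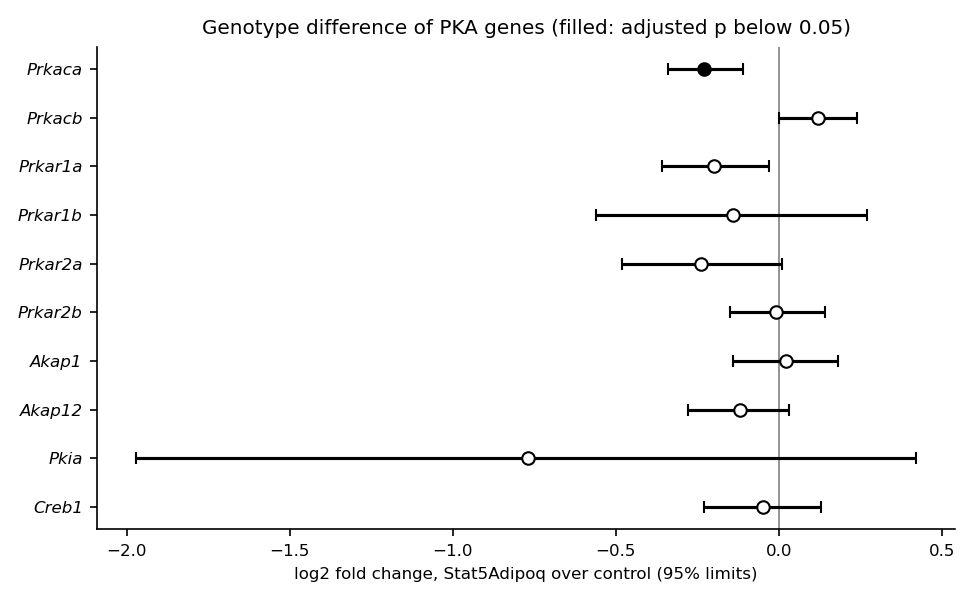
log2 fold change of each gene, Stat5Adipoq over control, with 95% limits from edgeR, where the filled point passed an adjusted p of 0.05. Prkaca is the filled point at -0.23, the limits of Prkar2b and Akap1 stay within -0.15 and 0.18, and those of Pkia reach from -1.97 to 0.42.

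Other genes of the pathway were taken from lists written with earlier results known. Of 26 further anchoring proteins 21 were tested and none passed in either direction, with 10 log2 fold changes below 0 and a median of 0.01. Akap2 had no match and was not analysed here, and Akap3, Akap4, Akap14 and Sphkap were below the count filter. Opa1, which anchors PKA at lipid droplets besides its role in mitochondrial fusion, collected the most reads, at 387 ± 22.8 in control and 398 ± 15.3 in Stat5Adipoq BAT (log2 fold change 0.04, limits -0.08 and 0.16), followed by Arfgef2 at 197 ± 28.1 and 187 ± 18.7 CPM. Akap13 had the lowest p of the list, with 121 ± 9.09 CPM in control and 141 ± 7.57 CPM in Stat5Adipoq BAT (log2 fold change 0.21, limits 0.08 and 0.35, edgeR adjusted p = 0.11). DESeq2 called it, at an adjusted p of 0.047.

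Of the remaining PKI genes and the related kinase gene Prkx, 2 of 3 were tested and neither passed, since Pkib was below the count filter. Pkig was at 8.36 ± 0.719 CPM in control and 7.78 ± 1.44 CPM in Stat5Adipoq BAT, and Prkx was at 18.7 ± 2.04 and 17.7 ± 1 CPM. All 10 genes of the CREB family, its coactivators and the salt-inducible kinases that PKA inhibits were tested, and none passed, with 8 below 0 and a median log2 fold change of -0.11. Crem, a CREB relative that is itself induced by cAMP, had the lowest p, at 15.4 ± 2.65 CPM in control and 12.4 ± 0.844 CPM in Stat5Adipoq BAT (log2 fold change -0.32, limits -0.58 and -0.07, edgeR adjusted p = 0.21). Sik2 and Sik1 had the highest CPM of that list, with log2 fold changes of -0.10 and -0.67 and limits for Sik1 of -1.92 and 0.59. The Sik1 value was -0.36 without control replicate 1, -0.38 without Stat5Adipoq replicate 1 and -1 without Stat5Adipoq replicate 2.

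None of 12 genes known as CREB targets passed, with 8 below 0 and a median log2 fold change of -0.16. Ucp1, the uncoupling protein of brown fat, was at 9000 ± 3180 CPM in control and 10600 ± 2380 CPM in Stat5Adipoq BAT (log2 fold change 0.24, limits -0.25 and 0.72), and Pde4d, a cAMP phosphodiesterase, had a log2 fold change of -0.17. Single libraries moved both of these uncalled values, Ucp1 to 0.45 without control replicate 3 and to 0.10 without control replicate 5, and Pde4d to -0.06 without control replicate 4 and to -0.27 without Stat5Adipoq replicate 4. Dio2, the deiodinase that activates thyroid hormone in brown fat, ranged from 78.6 to 583 CPM in control and from 73.0 to 241 CPM in Stat5Adipoq BAT (log2 fold change -1.07, limits -2.14 and 0.01, edgeR adjusted p = 0.34). Of 8 genes whose proteins PKA phosphorylates in adipocytes none passed, with 7 below 0 and a median of -0.04. Lipe, which encodes hormone sensitive lipase, was at 1710 ± 84.5 and 1710 ± 114 CPM and Plin1, which encodes perilipin, at 1220 ± 40.0 and 1210 ± 57.0 CPM, with limits that stayed within -0.13 and 0.13 for both. Pde3b, the phosphodiesterase through which insulin lowers cAMP, had the lowest p, with a log2 fold change of -0.21 (limits -0.42 and 0.00, edgeR adjusted p = 0.33). Without control replicate 3 none of these 5 lists had a called gene, and their medians ranged from -0.23 for the CREB targets to 0.04 for the anchors.

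The genes most like Prkaca were sought among 10151 others with at least 50 counts on average, by the correlation of log2 CPM over 10 libraries after the mean of each genotype was subtracted. They were Caprin1 (Pearson r = 0.947, Spearman correlation 0.939), Rap1a (0.935, 0.794), Pcgf3 (0.931, 0.964), Galnt1 (0.929, 0.927) and Wdfy1 (0.927, 0.952). None of these 5 was called between the genotypes, with adjusted p from edgeR between 0.55 and 0.99. The 10 points share library depth and the makeup of each tissue piece, and the highest of many correlations over few libraries is high by selection, so the values are a description.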

How the data were processed

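RNA-Seq of BAT was used, with 5 control and 5 Stat5Adipoq libraries. The authors aligned single reads of 50 bases to GRCm38 with STAR 2.5.0b, counted reads over exons with featureCounts 1.5.0-p1 and deposited raw counts per Entrez gene without normalization. The library kit is stranded, but the strand setting of counting is not given in the sources used here. Symbols came from the deposited table of the comparison, whose DESeq2 columns of fold changes and p-values, like the 3 subsets of it, were not used.

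The 10 genes and all lists were chosen with earlier results of these data known. Genes were kept where the sum of size factor normalized counts was above 45, which left 13568. Genotypes were compared over all of them with edgeR 4.0.16 (TMM scaling, quasi-likelihood F test, no covariate, Benjamini-Hochberg adjustment, threshold 0.05). Standard errors and limits follow from the F statistic. Depth was 8488129 to 19514904 counts per library, which sets the precision of low genes. Single genes were compared by exact two-sided permutation of log2 CPM with a prior count of 0.5. It is not stated that every library came from a separate mouse, so p-values measure the spread between libraries. No pair within a group agreed within sampling noise (chi-square per degree of freedom 5.06 to 33.8). Transcript lengths and exon overlaps were taken from GENCODE vM21 and positions from RefSeq, both on GRCm38.

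Named genes were all 10 members and, from each pathway list, every called gene, the 2 of highest CPM and the 1 of lowest p. Alternatives were DESeq2 1.42.0, limma-voom 3.58.1, scaling by DESeq2 size factors or by library size only, 2 filters (none and filterByExpr), robust dispersion, a replicate block and leaving out each library. Exon union length was added after the data were seen.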

Additional observations from a re-analysis of the deposited data

Results flagged for a closer look

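Among 34 groups of 5 libraries examined for these genes and ratios, 3 held a library whose gap to the nearest other was large for the range of its group, where chance gives about 1.7. Ratios and shares entered this check rounded to 3 figures. Pkia was 17.7 CPM in control replicate 3 and 2.30 to 3.65 CPM in the other controls. The share of Prkar2a among regulatory reads per kilobase was 1.54% in control replicate 3 and at most 1.23% in the other controls. The share of Prkar1a was 13% in control replicate 5 and 13.5% to 13.7% in the other controls. Its gap was 0.72 of the log2 range, against a cutoff of 0.71, and this flag depends on the rounding. What sets these values was not tested.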

How the results depend on the processing

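Over all genes, 368 were called, 660 with DESeq2 (334 lower, 326 higher), and 185 to 443 when a library was left out, with fewer than 250 without control replicate 1, 2 or 4 or Stat5Adipoq replicate 3, 4 or 5. Of the 10 members 1, Prkaca, was called, and 0 without a filter on low counts (Prkaca adjusted p = 0.061), with the replicate block (0.14) and in each of the 10 fits without a library, where between 0 and 0 were called. Its log2 fold change stayed between -0.25 and -0.20 over 18 alternatives, with adjusted p from 0.0013 to 0.14. With the block 273 genes were called. Deviations of same-numbered libraries had correlations of -0.255 to 0.188, and 1 of 5 controls correlated best with its own number. These correlations take in all variation between libraries, so they cannot exclude a pairing by number. The catalytic to regulatory balance differed by -0.13 on the log2 scale, by -0.22 for Prkaca over Prkar2b and by 0.02 over type I subunits, which reverses it. Signs of uncalled genes changed when a library was left out, with ranges of -0.05 to 0.03 for Prkar2b, -0.03 to 0.07 for Akap1, -0.97 to 0.20 for Pkia, -0.10 to 0.0018 for Creb1, -0.14 to 0.02 for Arfgef2, -0.03 to 0.03 for Lipe and -0.04 to 0.0094 for Plin1, and with library size only for Akap1 (-0.0031). The causes were not tested. Of 468 values for 26 genes 436 kept direction and side of the threshold. Depth limits Pkia (49.6 counts on average) and Prkar1b (24.4).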
